A study of Homo sapiens with 12 samples.

Results

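The PEA3 factors ETV1, ETV4 and ETV5 were described on Affymetrix human arrays of the colorectal cancer line HCT116 and of Hke3 and Hkh-2, lines derived from it. Every probe set whose single gene symbol in the platform annotation was ETV1, ETV4 or ETV5 was taken, which gave 12 of the 54675 probe sets and 3 of the 19775 genes with a probe set of their own. ETV1 had 5 probe sets, ETV4 had 2 and ETV5 had 5. The 12 arrays analysed formed 4 groups of 3 arrays each. HCT116 control cells were treated for 3 days with 25 ng/ml doxycycline or with vehicle, and Hke3 and Hkh-2 were cultured without treatment. HCT116 carries an oncogenic RAS allele, and homologous recombination was used to alter that allele in both lines. The methods of the study describe the allele as deleted, and its supplementary data as exchanged for the wild-type form. Each line is a single clone, so a difference from HCT116 and a difference of the clone cannot be told apart. The labels of the HCT116 arrays alone also give a treatment, a day and a further number that is not explained. Effects of these cannot be told apart from a difference between HCT116 and the lines either. The methods describe treated HCT116 cells as carrying inducible vectors, and whether the control cells carried one is not settled. The methods name parental HCT116 for this comparison, and it is not settled whether the vehicle-treated control arrays are those cells. Conditions were done in triplicate, with nothing said of separate cultures, so p-values measure array-to-array spread alone, possibly technical.

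ETV1 (also ER81), ETV4 (PEA3) and ETV5 (ERM) form a small group within the ETS family of transcription factors, which bind DNA around a GGAA core. RAS acts through the kinases RAF, MEK and ERK, and the PEA3 genes are transcribed when ERK is active. A part of that control runs through CIC, a repressor that sits on the PEA3 promoters and leaves them when ERK signalling is on. The PEA3 proteins are themselves phosphorylated by kinases below RAS and are removed by a ubiquitin ligase built around COP1. In epithelial tumours they are known as activators of matrix protease and motility genes.

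In the RefSeq annotation of GRCh38.p14, ETV1 lies on chromosome 7 from 13891229 to 13991425, ETV4 on chromosome 17 from 43527846 to 43546340, and ETV5 on chromosome 3 from 186046314 to 186109089. RefSeq promoter windows of 300 bases were searched on both strands for the CIC octamers TGAATGAA, TGAATGGA, TCAATGAA and TCAATGGA, for the PEA3 site AGGAAG and for the AP-1 site TGAGTCA. The windows available included none for ETV4 or ETV5, nor for the CIC-repressed genes DUSP4 and CCND2, so these promoters were not searched. ETV1 had 6 such windows, some of which overlap each other, and 1 of them held a CIC octamer. That window and the 1 window of DUSP6, which encodes an ERK phosphatase and is another gene repressed by CIC, are shown from 250 bases before to 30 bases after the annotated start, as the window of a PEA3 gene and a window with more than 1 octamer. Capitals mark the octamer TGAATGGA in ETV1, and in DUSP6 the complement of AGGAAG and 2 copies of the complement of TCAATGGA, which begin at bases 227 and 252 of the window.
ETV1, GRCh38.p14 chr7:13991396-13991675, minus strand: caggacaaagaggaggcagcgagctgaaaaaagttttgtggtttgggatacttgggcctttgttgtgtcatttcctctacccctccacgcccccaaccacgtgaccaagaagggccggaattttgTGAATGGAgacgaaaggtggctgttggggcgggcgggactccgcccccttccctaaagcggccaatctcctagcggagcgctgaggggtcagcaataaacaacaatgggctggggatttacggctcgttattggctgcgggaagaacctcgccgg
DUSP6, GRCh38.p14 chr12:89352472-89352751, minus strand: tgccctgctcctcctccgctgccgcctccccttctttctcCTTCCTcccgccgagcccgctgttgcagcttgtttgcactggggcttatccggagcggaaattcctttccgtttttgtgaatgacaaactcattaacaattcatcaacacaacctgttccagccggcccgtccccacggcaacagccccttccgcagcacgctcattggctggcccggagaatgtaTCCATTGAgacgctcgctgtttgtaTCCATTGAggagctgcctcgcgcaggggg
Any CIC octamer was present in 3.77% of the 35116 promoter windows of this length, TGAATGGA in 1.03%, TCAATGGA in 0.51%, AGGAAG in 33.6% and TGAGTCA in 4.95%. In ETV1 the octamer began at base 126 of the window, 125 bases before the start. The letters AGGAAG occurred in 2 other ETV1 windows, which overlap each other almost fully. The 1 window of SPRY4, a feedback inhibitor gene of the pathway, held none of these letters. The 1 window of PTPN9, a phosphatase gene that is also repressed by CIC, held TCAATGGA at base 151 and TGAGTCA at base 205, and PTPN9 was called in neither comparison of HCT116 with the lines. The windows of SPRED1 and SPRED2 held AGGAAG and no CIC octamer, and SPRED2 was higher in HCT116 than in both lines. Such matches describe the sequence alone.

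The deposited values were log2 values from RMA, a procedure of background correction, normalization between arrays and summary of the probes of each probe set. They are relative signals of a probe set, so levels of different probe sets or genes are not set against each other. A probe set was kept for testing where at least 1 group mean was 6 or more, and limma was run on the 4 groups together with Benjamini-Hochberg adjustment over the 27344 probe sets kept. An adjusted p under 0.05 was called, and errors below are standard errors of the fit. Of the 12 PEA3 probe sets, 10 were kept. The ETV1 probe set 221910_at and the ETV5 probe set 231083_at had group means under 6 in all 4 groups and were tested in a fit with no filter, and the ETV1 probe sets 217061_s_at and 217053_x_at passed the filter through the HCT116 arrays alone. Probe sets ending in x_at or s_at can bind several transcripts.

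Array medians lay between 5.80 and 5.86, and r between arrays of 1 group was 0.993 to 0.998 over the probe sets, as a description. The vehicle array numbered 2 and the Hke3 array numbered 3 stood apart from their groups, with r = 0.683 between their deviations over genes. The mean of 10 colon epithelium markers was 8.80 to 8.84 in HCT116 doxycycline arrays, 8.79 to 8.86 in HCT116 vehicle arrays, 8.74 to 8.93 in Hke3, and in Hkh-2 it was 9.23 to 9.27. The mean of 9 markers of blood, stromal, endothelial, liver and glial cells was 5.82 to 5.91, 5.81 to 5.92, 5.61 to 5.68 and 5.86 to 5.99 in the same order of groups. Of the epithelial markers, 8 reached a group mean of 6, among them EPCAM (13.09 in both HCT116 groups, 13.25 in Hke3 and 13.16 in Hkh-2), while the galectin gene LGALS4 and the cadherin gene CDH17 stayed under 6 in every group. In vehicle arrays, 4 epithelial markers were called lower than in Hkh-2 (limma), beside 21.7% of all genes. They were the cadherin gene CDH1 (-1.17) and the keratin genes KRT8 (-0.59), KRT18 (-0.33) and KRT20 (-2.22, at 6.64 in vehicle arrays and 8.86 in Hkh-2). CDH1 was also lower than in Hke3 (-0.83), while KRT18 (0.20) and CDX2 were called higher than in Hke3. Of the other markers, 7 reached 6, and the leukocyte gene PTPRC and the liver gene ALB stayed under it. Of these 9 markers, PECAM1, VWF, HBB and GFAP were called higher in vehicle arrays than in Hke3 (limma). PECAM1 and VWF were also called higher than in Hkh-2. Over all genes, 24.6% were called higher than in Hke3 and 14.3% higher than in Hkh-2. VWF averaged 6.33 in doxycycline arrays, 6.35 in vehicle arrays, 5.34 in Hke3 and 5.32 in Hkh-2. The collagen gene COL3A1 was lower than in Hkh-2, at 4.45 in doxycycline arrays, 4.49 in vehicle arrays, 4.45 in Hke3 and 6.73 in Hkh-2 (limma adjusted p = 2.34e-08, vehicle against Hkh-2). The 5′ minus 3′ difference of the actin control probe sets, a sign of RNA quality, was -0.942 to -0.706 in doxycycline arrays, -0.855 to -0.48 in vehicle arrays, -0.575 to -0.229 in Hke3, while Hkh-2 arrays had -0.324 to -0.232. The corresponding GAPDH values were 0.0108 to 0.0825, -0.0301 to 0.0909, 0.00158 to 0.114 and -0.033 to 0.0152. The part of these values in the differences below was not tested.

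All 3 PEA3 genes were higher in HCT116 vehicle arrays than in both lines. With no filter on low values, 12 of 12 probe sets were called higher than in Hke3, where 12.2% of all 54613 non-control probe sets were, and 12 of 12 were called higher than in Hkh-2, where 8.77% were (limma, highest adjusted p = 0.0129 and 0.0243). On each of the 12 probe sets, every vehicle array lay above every Hke3 array and above every Hkh-2 array. Over all probe sets, 19.9% did so against Hke3 and 18.3% against Hkh-2. The median difference of the 12 probe sets was 0.88 against Hke3 and 0.63 against Hkh-2 (log2 scale), beside 0.05 and 0.03 over all probe sets. Such signals cannot tell a smaller share of expressing cells from less RNA per cell. The comparisons with Hke3 and Hkh-2 share their vehicle arrays and are not independent, and probe sets of a gene share its RNA. Among the probe sets kept, 23.4% were called higher than in Hke3 and 17% higher than in Hkh-2.

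**Figure D1:**
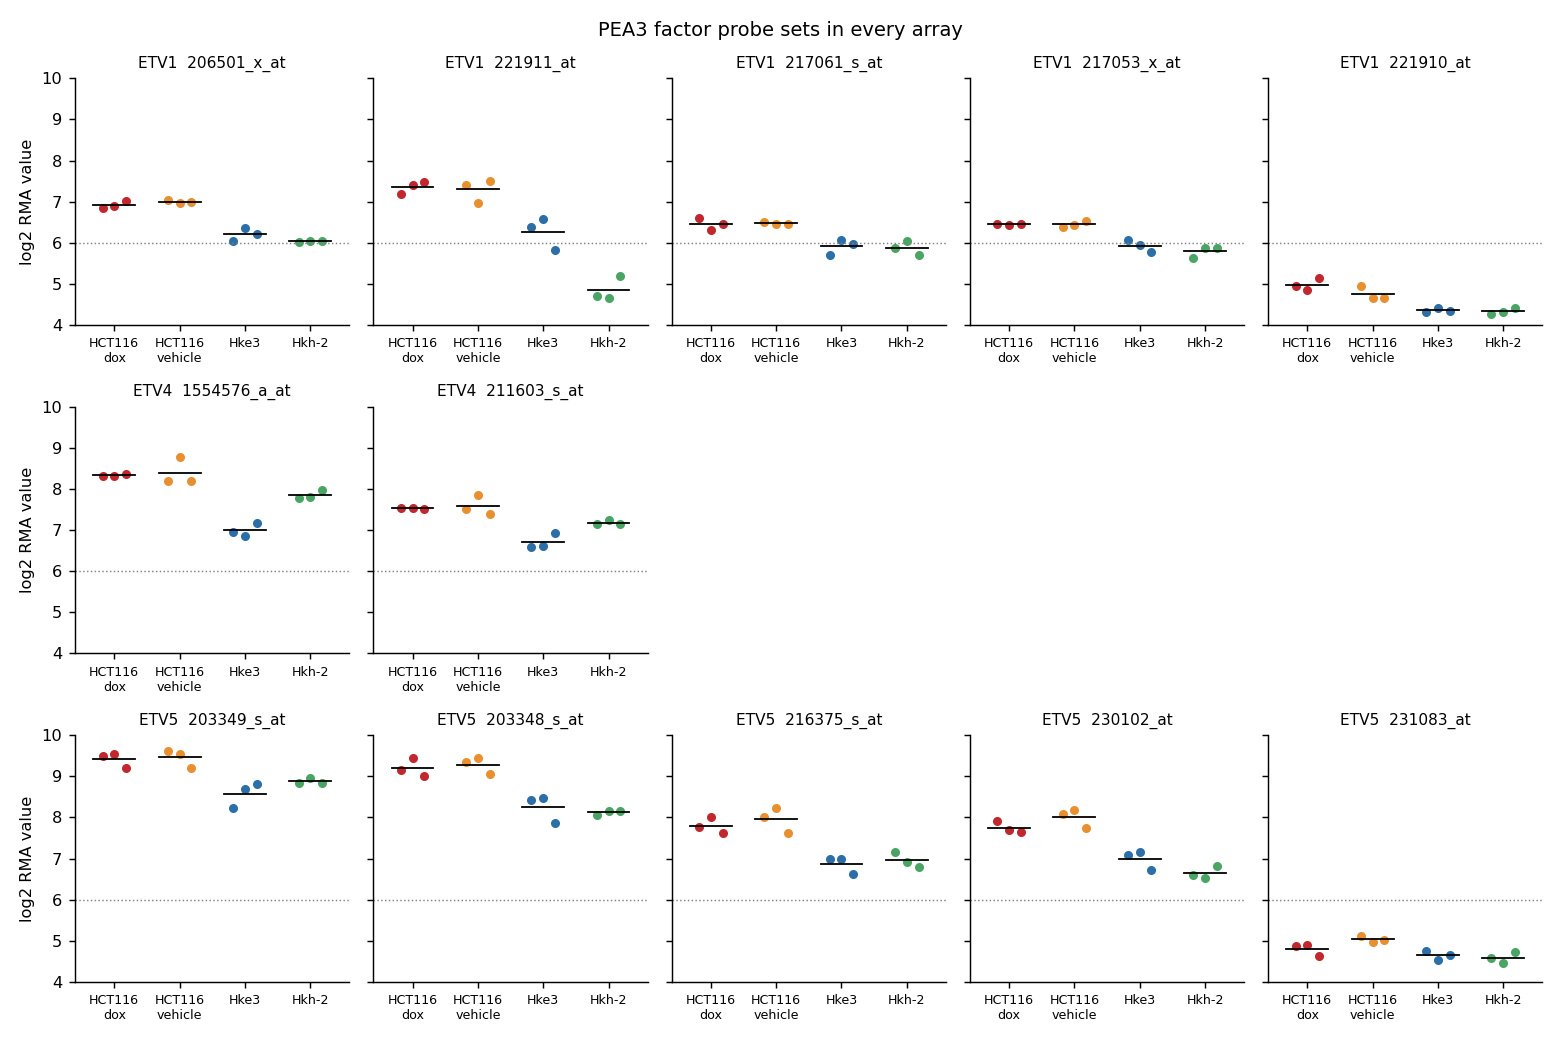
Log2 RMA value (vertical axis) of each ETV1, ETV4 and ETV5 probe set by group (horizontal axis, dox is doxycycline). Each point is 1 array, each black line the mean of 3 arrays, and the dotted line the minimum of 6 for a group mean. HCT116 vehicle arrays lie above all Hke3 and Hkh-2 arrays on each of the 12 probe sets, and Hke3 lies below Hkh-2 on both ETV4 probe sets.

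ETV4, the founding PEA3 factor, was the member with a clear order among the recombined lines. On the probe set 1554576_a_at, its log2 value was 8.32, 8.32 and 8.37 in HCT116 doxycycline arrays, 8.20, 8.77 and 8.21 in HCT116 vehicle arrays, 6.95, 6.86 and 7.18 in Hke3, and 7.78, 7.82 and 7.98 in Hkh-2. The HCT116 groups overlap each other, Hkh-2 lies below both, and Hke3 lies below Hkh-2 with no overlap. Vehicle arrays were higher than Hke3 by 1.40 ± 0.138 on the log2 scale, 2.63-fold (95% interval 1.10 to 1.70, limma adjusted p = 5.46e-06). They were higher than Hkh-2 by 0.53 ± 0.138, 1.44-fold (limma adjusted p = 0.00957). HCT116 vehicle replicate 2, which stood apart, is the highest ETV4 array, and without it the difference from Hkh-2 was 0.34 (limma adjusted p = 0.0195). The doxycycline arrays, which lie close together, gave 1.35 ± 0.138 against Hke3 and 0.48 ± 0.138 against Hkh-2 (limma adjusted p = 7.52e-06 and 0.0165).

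The other ETV4 probe set, 211603_s_at, had log2 values of 7.54, 7.55 and 7.51 in doxycycline arrays, 7.51, 7.86 and 7.39 in vehicle arrays, 6.59, 6.61 and 6.92 in Hke3, and 7.14, 7.24 and 7.15 in Hkh-2. The same order of groups is seen, with the highest Hke3 array, replicate 3, at 6.92. Vehicle arrays were higher than Hke3 by 0.88 ± 0.117 and higher than Hkh-2 by 0.41 ± 0.117 (limma adjusted p = 6.96e-05 and 0.0161). The call against Hkh-2 was lost without HCT116 vehicle replicate 2 (0.27, limma adjusted p = 0.0541), without Hkh-2 replicate 1 (0.39, limma adjusted p = 0.0525) and without Hkh-2 replicate 3 (0.40, limma adjusted p = 0.0502).

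Between the lines, Hke3 had less ETV4 RNA than Hkh-2. The difference was -0.87 ± 0.138 on the log2 scale on 1554576_a_at (95% interval -1.17 to -0.57, limma adjusted p = 0.000419) and -0.47 ± 0.117 on 211603_s_at (limma adjusted p = 0.00777), and neither call was lost when any array was left out. Of all probe sets kept, 18.9% were called lower and 17.1% higher in Hke3 than in Hkh-2, so a difference between the lines was common on these arrays. The neighbours in the order HCT116, Hkh-2, Hke3 thus differed beyond their spread on 1554576_a_at.

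ETV5 was higher in HCT116 than in Hke3 by 0.88 to 1.08 on its 4 probe sets kept. On 203349_s_at, the probe set that stands for the gene, log2 values were 9.50, 9.54 and 9.21 in doxycycline arrays, 9.63, 9.54 and 9.22 in vehicle arrays, 8.24, 8.70 and 8.80 in Hke3, and 8.85, 8.97 and 8.84 in Hkh-2. Vehicle arrays were higher than Hke3 by 0.88 ± 0.150, 1.84-fold, and higher than Hkh-2 by 0.58 ± 0.150, 1.49-fold (limma adjusted p = 0.000458 and 0.00899). Neither line overlaps the HCT116 arrays here. The second probe set, 203348_s_at, had 9.15, 9.44 and 9.01 in doxycycline arrays, 9.35, 9.46 and 9.05 in vehicle arrays, 8.42, 8.48 and 7.87 in Hke3, and 8.07, 8.15 and 8.15 in Hkh-2. It was higher in vehicle arrays by 1.03 ± 0.160 against Hke3 and by 1.16 ± 0.160 against Hkh-2 (limma adjusted p = 0.000233 and 0.000102).

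On 216375_s_at, ETV5 was 7.76, 8.01 and 7.61 in doxycycline arrays, 8.01, 8.23 and 7.61 in vehicle arrays, 6.99, 6.99 and 6.62 in Hke3, and 7.16, 6.92 and 6.79 in Hkh-2. The differences of vehicle arrays from Hke3 and Hkh-2 were 1.08 ± 0.164 and 1.00 ± 0.164 (limma adjusted p = 0.000194 and 0.000435). On 230102_at, which carries no suffix for several transcripts, log2 values were 7.91, 7.71 and 7.64 in doxycycline arrays, 8.08, 8.18 and 7.74 in vehicle arrays, 7.09, 7.16 and 6.71 in Hke3, and 6.61, 6.52 and 6.83 in Hkh-2. There the differences were 1.01 ± 0.142 against Hke3, 2.02-fold, and 1.35 ± 0.142 against Hkh-2, 2.54-fold (limma adjusted p = 0.000105 and 1.1e-05). The ETV5 probe set 231083_at lay between 4.46 and 5.10 on every array, and its differences of 0.38 and 0.44 (limma with no filter, adjusted p = 0.0129 and 0.00635) lie in a range where signal is near background.

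The ETV5 probe sets thus agree on HCT116 over each line and not on the order of the lines. Hke3 minus Hkh-2 was -0.30 on 203349_s_at (95% interval -0.63 to 0.02, limma adjusted p = 0.136), where the Hke3 and Hkh-2 arrays do not overlap. It was 0.34 on 230102_at (95% interval 0.03 to 0.64, limma adjusted p = 0.0836), 0.14 on 203348_s_at and -0.09 on 216375_s_at, none of them called. Hke3 replicate 3, which stood apart, is the highest Hke3 array on 203349_s_at at 8.80 and the lowest on 203348_s_at at 7.87. Without that array and HCT116 vehicle replicate 2 together, Hke3 minus Hkh-2 was called on 203349_s_at at -0.41 (limma adjusted p = 0.0445) and, with the other sign, on 203348_s_at at 0.33 (limma adjusted p = 0.0387) and 230102_at at 0.47 (limma adjusted p = 0.00725). No order of Hke3 and Hkh-2 is therefore given for ETV5.

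ETV1 was higher in HCT116 by sizes that differed widely between its probe sets, from 0.43 to 2.45 against Hkh-2. On 206501_x_at, which stands for the gene, log2 values were 6.84, 6.88 and 7.01 in doxycycline arrays, 7.03, 6.96 and 6.99 in vehicle arrays, 6.04, 6.35 and 6.21 in Hke3, and 6.01, 6.05 and 6.03 in Hkh-2. Vehicle arrays were higher than Hke3 by 0.79 ± 0.0852, 1.73-fold, and higher than Hkh-2 by 0.96 ± 0.0852, 1.95-fold (limma adjusted p = 1.12e-05 and 2.34e-06). The lines overlap each other, with Hke3 minus Hkh-2 at 0.17 (95% interval -0.01 to 0.36, limma adjusted p = 0.138).

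On 221911_at, ETV1 had log2 values of 7.18, 7.41 and 7.48 in doxycycline arrays, 7.41, 6.97 and 7.50 in vehicle arrays, 6.38, 6.58 and 5.82 in Hke3, and 4.71, 4.65 and 5.18 in Hkh-2. This is the ETV1 probe set on which the 2 lines part, with every Hkh-2 array below every Hke3 array. Vehicle arrays were higher than Hke3 by 1.04 ± 0.200, 2.05-fold (limma adjusted p = 0.00115). The fitted difference from Hkh-2 was 2.45 ± 0.200 (limma adjusted p = 1.11e-06). As the Hkh-2 mean of 4.85 is near background, the size is at least 1.30, counted from 6. Hke3 minus Hkh-2 was 1.41 ± 0.200 as fitted (limma adjusted p = 0.000171) and at least 0.26 from 6.

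The remaining ETV1 probe sets lay lower. On 217061_s_at, the group means were 6.45 in doxycycline arrays, 6.47 in vehicle arrays, 5.91 in Hke3 and 5.87 in Hkh-2, and on 217053_x_at they were 6.45, 6.45, 5.93 and 5.79 in the same order. Vehicle arrays differed from Hke3 by 0.56 ± 0.115 and 0.52 ± 0.0925 and from Hkh-2 by 0.60 ± 0.115 and 0.65 ± 0.0925, as fitted. From 6, these differences are at least 0.47 on 217061_s_at and at least 0.45 on 217053_x_at against each line. On 221910_at, whose arrays lay between 4.27 and 5.14, the fitted differences were 0.41 and 0.43 (limma with no filter, adjusted p = 0.00878 and 0.008). On none of these 3 probe sets were Hke3 and Hkh-2 called apart (lowest adjusted p = 0.275 on 217053_x_at).

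**Figure D2:**
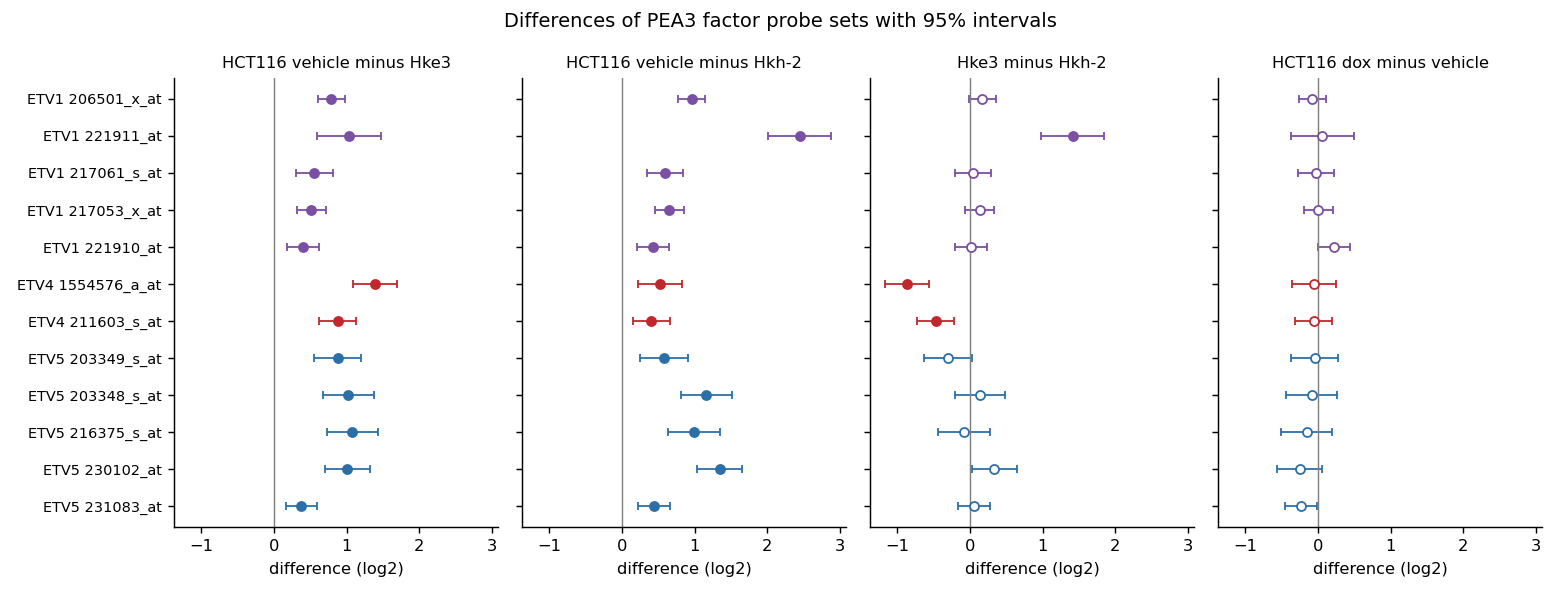
Difference in log2 RMA value (horizontal axis) of each PEA3 probe set (vertical axis) in 4 comparisons, with bars for the 95% interval of the fit over 12 arrays. Filled points passed an adjusted p under 0.05, with no filter for 221910_at and 231083_at. All 12 points are filled and above 0 against Hke3 and Hkh-2, 3 are filled between Hke3 and Hkh-2 (1.41 for ETV1 221911_at, -0.87 and -0.47 for ETV4), and none for doxycycline minus vehicle.

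Doxycycline, the agent used to switch on inducible vectors in the study, was not called to change any PEA3 probe set in HCT116 control cells. Differences between doxycycline and vehicle arrays ran between -0.25 on ETV5 230102_at and 0.22 on ETV1 221910_at, and the 12 adjusted p-values from limma were 1. For ETV4 1554576_a_at the difference was -0.05 (95% interval -0.35 to 0.25), for ETV5 203349_s_at -0.04 (-0.37 to 0.28) and for ETV1 206501_x_at -0.08 (-0.26 to 0.11). With limma, 0% of the 27344 probe sets kept and 0% of the 12852 genes kept were called, while 382 probe sets and 127 genes had an unadjusted p under 0.05. No PEA3 probe set kept was among these. In the limma fit with no filter, ETV1 221910_at (0.22) and ETV5 231083_at (-0.23) had an unadjusted p under 0.05, and both lie under 6 in every group.

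The doxycycline arrays are a second set of HCT116 arrays, compared with the same Hke3 and Hkh-2 arrays. Of the 12 PEA3 probe sets, 11 were called higher in them than in Hke3 and 11 higher than in Hkh-2 with no filter, beside 11.4% and 8.64% of all 54613 probe sets. The exception was ETV5 231083_at (0.15 and 0.21, limma adjusted p = 0.334 and 0.195). Over the probe sets kept, 21.8% were called higher in doxycycline arrays than in Hke3 and 17.1% higher than in Hkh-2.

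At the gene level, the probe set with the highest mean stood for each gene, and 12852 genes were kept. The 3 PEA3 genes were called higher than in both lines, where 9.04% of genes were higher and 12.6% lower than in both. Against Hke3, 24.6% of genes were called higher and 23.2% lower, and against Hkh-2, 14.3% were called higher and 21.7% lower. The median difference over all genes was 0.045 against Hke3 and -0.021 against Hkh-2.

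Of 7 other genes known to be repressed by CIC, 6 were kept. Higher than in each line were 4 of them, beside 9.04% of all genes. These 4 were the ERK phosphatase genes DUSP4 and DUSP6 and the feedback inhibitor genes SPRY4 and SPRED2. The median of the 6 was 0.77 against Hke3 and 0.41 against Hkh-2. SPRY4 had log2 values of 8.26, 8.10 and 7.85 in doxycycline arrays, 8.31, 8.06 and 7.86 in vehicle arrays, 6.42, 6.48 and 6.54 in Hke3, and 7.42, 7.17 and 7.30 in Hkh-2. These values fall in the order seen for ETV4, HCT116 above Hkh-2 and Hkh-2 above Hke3, with no overlap between HCT116 and either line. SPRY4 was higher in vehicle arrays than in Hke3 by 1.60 and than in Hkh-2 by 0.78, DUSP6 by 0.99 and 0.58, DUSP4 by 0.99 and 0.86, and SPRED2 by 0.55 and 0.24. Between the lines, SPRY4 (-0.82), DUSP6 (-0.41) and SPRED2 (-0.31) were lower in Hke3 than in Hkh-2 (limma adjusted p = 0.00021, 0.0347 and 0.00333), and DUSP4 was not called (-0.12). Over all genes, 23.5% were called lower and 16.3% higher in Hke3 than in Hkh-2.

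The gene SPRED1, a relative of SPRED2, was lower in vehicle arrays than in Hke3 by a fitted -0.24 (limma adjusted p = 0.0422), a call lost when any of 8 arrays was left out, and PTPN9 was not called in either comparison (0.16 and 0.05). CCND2, a cyclin gene, had group means under 6 and was not kept. CIC itself had log2 values of 8.28, 8.33 and 8.20 in doxycycline arrays, 8.20, 8.79 and 8.17 in vehicle arrays, 7.91, 7.83 and 8.07 in Hke3, and 8.09, 8.12 and 7.89 in Hkh-2. Its difference from Hke3 was 0.45 (limma adjusted p = 0.019), and that call was lost without HCT116 vehicle replicate 2, Hke3 replicate 1 or Hke3 replicate 2. Against Hkh-2 it was 0.35 (limma adjusted p = 0.0663). Of its partner genes, ATXN1 averaged 5.38 in vehicle arrays, 9.30 in Hke3 and 5.57 in Hkh-2, a difference between the lines that was called (limma adjusted p = 1.7e-10). ATXN1L was lower in vehicle arrays than in Hke3 by a fitted -0.55 (limma adjusted p = 0.00157) and was not called against Hkh-2 (-0.28).

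**Figure D3:**
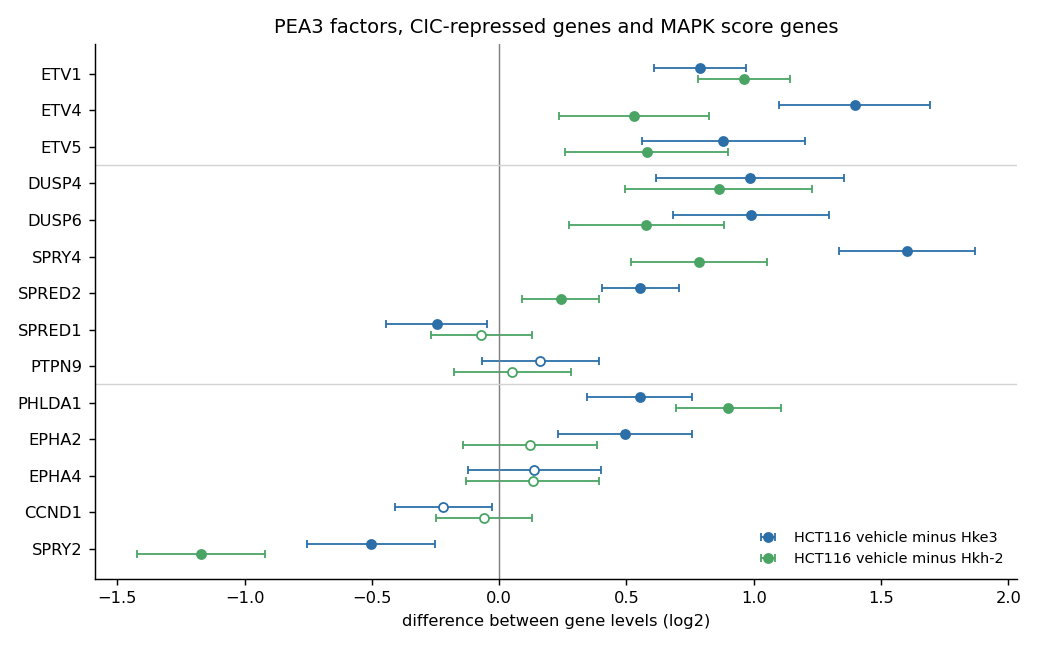
Difference between gene levels (horizontal axis, log2) for ETV1, ETV4 and ETV5, for 6 genes repressed by CIC and for 5 further genes of a MAPK activity score (vertical axis), HCT116 vehicle minus Hke3 (blue) and minus Hkh-2 (green). Bars are 95% intervals of the fit over 12 arrays and filled points passed an adjusted p under 0.05. ETV4 (1.40 and 0.53) and SPRY4 (1.60 and 0.78) lie further from Hke3 than from Hkh-2, and SPRY2 (-0.50 and -1.17) lies below 0.

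A MAPK activity score of genes transcribed below ERK holds ETV4 and ETV5 beside 8 other genes. Of these 8, 5 were higher than in Hke3 (PHLDA1, SPRY4, DUSP4, DUSP6 and EPHA2) and 4 higher than in Hkh-2 (the same without EPHA2), with medians of 0.52 and 0.35. SPRY4, DUSP4 and DUSP6 are also among the CIC-repressed genes above, so the counts of the lists are not separate. Of the genes in this list alone, PHLDA1 and EPHA2 were called higher than in Hke3, and PHLDA1 higher than in Hkh-2. Over all genes, 24.6% and 14.3% were called higher in these comparisons. SPRY2, a feedback inhibitor gene related to SPRY4, was lower in HCT116 vehicle arrays than in both lines, with fitted differences of -0.50 against Hke3 and -1.17 against Hkh-2 (limma adjusted p = 0.00326 and 4.56e-06). CCND1, which encodes cyclin D1 (-0.22 and -0.06), and the ephrin receptor gene EPHA4 (0.14 and 0.13) were called in neither comparison.

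Upstream of the PEA3 genes, 9 receptor tyrosine kinase genes were kept. FGFR3 (0.67 and 0.67 on the log2 scale) and RET (0.39 and 0.60) were higher in vehicle arrays than in Hke3 and Hkh-2, and FGFR2 was lower than in both (-0.54 and -0.88), although its probe sets did not share that direction. MET, the receptor for hepatocyte growth factor, was lower than in Hke3 (-0.52) and higher than in Hkh-2 (0.63). ERBB2, ERBB3 and FGFR4 were called lower than in Hkh-2, with -0.42, -0.60 and -0.51, and were not called against Hke3. EGFR and FGFR1 were not called, although FGFR1 was lower than in Hke3 with x_at and s_at probe sets left out.

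Of 8 genes for kinases and coactivators that act on the PEA3 proteins, 6 were measured by a probe set naming them alone, and all 6 were kept. RPS6KA5, which encodes the kinase MSK1, was higher than in Hke3 by 1.55 (limma adjusted p = 1.53e-06) and was not called against Hkh-2 (0.22). With x_at and s_at probe sets left out, RPS6KA5 was lower than in Hkh-2. The acetyltransferase gene CREBBP was lower than in both lines (-0.46 and -0.42). RPS6KA1, which encodes the kinase RSK1, was lower than in Hkh-2 (-0.74). The genes for ERK1 (MAPK3), RSK2 (RPS6KA3) and p300 (EP300) were not called in either comparison.

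In the ubiquitin ligase that removes PEA3 proteins, all 7 genes were kept. TRIB1, which encodes an adaptor of the COP1 ligase, was higher in vehicle arrays than in Hke3 by 0.72 and than in Hkh-2 by 0.25 (limma adjusted p = 2.86e-06 and 0.0138). It was also lower in Hke3 than in Hkh-2 (-0.47), as ETV4 was. COP1, the subunit that binds the substrate, was lower than in both lines by small amounts (-0.20 and -0.39), a direction not shared against Hke3 by the probe set that binds it alone (0.059). DDB1, the ligase's adaptor subunit, was higher than in Hke3 (0.81), DET1, a COP1 partner, was higher than in Hkh-2 (0.35), and the RING subunit gene RBX1 was lower than in Hke3 (-0.27). CUL4A, the scaffold, and TRIB2, another adaptor, were not called in either comparison, although CUL4A was higher than in Hke3 by the mean of all its probe sets.

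Of 18 genes reported as PEA3 targets, 12 were kept. Against Hke3, 2 were higher and 4 lower, against Hkh-2, 2 were higher and 3 lower, and the medians were 0.05 and -0.18. Over all genes, the shares called higher were 24.6% against Hke3 and 14.3% against Hkh-2, and the shares called lower were 23.2% and 21.7%. MUC4, a membrane mucin gene, averaged 7.95 in vehicle arrays, 4.71 in Hke3 and 5.00 in Hkh-2, and TWIST1, a transcription factor of epithelial to mesenchymal transition, averaged 6.85, 6.17 and 3.73. Both were called higher than in each line. VIM, which encodes vimentin, averaged 6.39 in vehicle arrays and was lower than in Hke3 (8.38) and Hkh-2 (8.67). The matrix protease gene MMP7 averaged 4.93 in vehicle arrays, 7.60 in Hke3 and 4.89 in Hkh-2, SPP1, which encodes osteopontin, 4.18, 8.40 and 4.62, and PLAU, which encodes urokinase, 8.85, 10.87 and 9.07. These 3 were called lower than in Hke3 and were not called against Hkh-2. ERBB2 and the cyclin gene CCND3 (-0.41) were called lower than in Hkh-2.

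Among 24 other ETS family genes, 17 were kept. ERF, which encodes an ETS repressor controlled by ERK, was called higher than in both lines, by 1.35 and 1.27. On the probe sets that stand for the genes, it was the 1 other ETS gene called higher in either comparison. With x_at and s_at probe sets left out, ELK4 was higher than in Hke3 and ELF3 lower. Lower in vehicle arrays than in both lines were 7 of them, beside 12.6% of all genes, namely ETS1, ETV6, ETV7, ELF1, ELF2, ELF5 and EHF. For ELF5, at 4.22 in vehicle arrays, 5.19 in Hke3 and 7.48 in Hkh-2, the call against Hke3 lies near background. EHF, an epithelial ETS factor gene, averaged 5.24 in vehicle arrays, 11.85 in Hke3 and 12.21 in Hkh-2, and ETS1 averaged 4.0, 10.26 and 7.80. The median of the 17 genes was -0.25 against Hke3 and -0.26 against Hkh-2. In doxycycline against vehicle arrays, no gene of any list was called.

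The genes whose 12 array values were most like each PEA3 gene were found by Pearson r over the genes kept, as a description, since the arrays fall into 4 groups. For ETV1 they were MSX2 (0.983), ANXA10 (0.983) and ZBED2 (0.981). MSX2, a homeobox gene, averaged 11.88 in doxycycline arrays, 11.99 in vehicle arrays, 8.87 in Hke3 and 8.56 in Hkh-2. For ETV4 they were PDCD2L (0.992), NOB1 (0.990) and CNOT9 (0.984). NOB1, which encodes a ribosome assembly nuclease, averaged 11.73 in doxycycline arrays, 11.77 in vehicle arrays, 10.66 in Hke3 and 11.33 in Hkh-2, with the lowest level in Hke3 as for ETV4. For ETV5 they were POM121 (0.980), E2F2 (0.979) and HAUS5 (0.974), and E2F2, a cell cycle transcription factor gene, averaged 9.05, 9.10, 8.56 and 8.74 in the same groups. Among themselves, ETV4 and ETV5 had r = 0.862, ETV1 and ETV5 0.835, and ETV1 and ETV4 0.703.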

How the data were processed

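RNA of HCT116 control cells with doxycycline or vehicle, of Hke3 and of Hkh-2 was measured on 12 arrays, 3 in each group. The deposited table holds log2 values that the authors computed with RMA, as the submitters' processing notes name it. The RMA version, the chip definition and the arrays normalized together are not given in the sources used here. Array signals tend to understate fold changes. The number of arrays limits the precision, and no counts or depths apply. The gene targeted in Hke3 and Hkh-2 is not reported here.

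Groups came from the sample labels. Probe sets were named from the platform annotation, and RefSeq gene IDs were found for 41043 of the 41097 that had 1 symbol. Probe sets with several symbols (1801) or unnamed here (11777) named no gene, and 62 control probe sets were left out. Fits used limma 3.58.1 in R 4.3.3 (lmFit, contrasts, eBayes) on all 12 arrays, with a group mean of at least 6, and were tested on simulated data. There, 44 to 67% of differences of 0.5 and 88 to 99% of differences of 1 were called. False calls made up 9.78% of gene calls against Hke3 and 6.51% against Hkh-2. Among probe set calls they made up 7.74% and 0.752%, so the share can exceed the 0.05 threshold. Each comparison was simulated once, with far fewer changed features than were called in these data. The simulated rates therefore need not hold for the fits reported here. A mean under 6 was treated as near background. Genes named were all member probe sets, the 3 genes with the highest r to each member, and, of each pathway list, the members needed to account for its counts. Members and lists were chosen with earlier results of these data known. Same-numbered vehicle and doxycycline arrays deviated together (r = 0.228, 0.212 and 0.453 over genes). Pairing was taken where r was over 0.1 in every number, which no further groups met (for doxycycline and Hkh-2, r = 0.0762, 0.134 and 0.104). The main fits did not use this pairing, and no test paired the vehicle and doxycycline arrays alone. The replicate block below was set over all 4 groups. Alternatives were other summaries of probe sets, filters, normalizations, priors and HCT116 arrays, the replicate block and leaving out arrays.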

Additional observations from a re-analysis of the deposited data

Results flagged for a closer look

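Hke3 and Hkh-2, compared with the same HCT116 vehicle arrays, differed from each other in 3 PEA3 probe sets by the test of that difference. ETV1 221911_at gave 1.41 as fitted on the log2 scale for Hke3 minus Hkh-2, at least 0.26 with the Hkh-2 mean counted as 6 (limma adjusted p = 0.000171), with 3 of 3 Hke3 arrays above all Hkh-2 arrays and the Hkh-2 mean near background. ETV4 1554576_a_at gave -0.87 (limma adjusted p = 0.000419) and ETV4 211603_s_at gave -0.47 (limma adjusted p = 0.00777), each with 3 of 3 Hke3 arrays below all Hkh-2 arrays. Among the probe sets kept, 17.1% were called higher and 18.9% lower in Hke3 than in Hkh-2.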

How the results depend on the processing

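ETV1, ETV4 and ETV5 stayed called higher in HCT116 than in each line at the gene level under every alternative that gave a value. ETV1 has no value with a group mean of at least 7. With each array left out in turn, HCT116 minus Hke3 ran from 0.71 to 0.87 for ETV1, from 1.21 to 1.49 for ETV4 and from 0.71 to 1.00 for ETV5, and HCT116 minus Hkh-2 from 0.94 to 0.98, from 0.34 to 0.63 and from 0.50 to 0.70. Without probe sets that bind several transcripts, HCT116 minus Hkh-2 was 2.45 as fitted for ETV1, at least 1.30 with the Hkh-2 mean counted as 6, and 1.35 for ETV5.

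Hke3 minus Hkh-2 of ETV1 became called with the mean of all its probe sets (0.36, limma adjusted p = 0.00317) and without probe sets that bind several transcripts (1.41 as fitted, at least 0.26 from 6, limma adjusted p = 8.8e-05), and ran from 0.10 to 0.25 with 1 array left out, called without Hke3 replicate 1. For ETV5 it ran from -0.41 to -0.13 with 1 array left out, and was called without Hke3 replicate 3 (-0.41, limma adjusted p = 0.0396). It was also called without HCT116 vehicle replicate 2 and Hke3 replicate 3 together (-0.41, limma adjusted p = 0.0363). Without probe sets that bind several transcripts, the ETV5 difference changed sign to 0.34, the value of 230102_at, and was not called. The cause was not tested.

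With a replicate block, 1761 genes were called higher than in Hkh-2, against 1842 without it, 0 genes differed between doxycycline and vehicle, and no PEA3 call changed. For 8 of the 12 arrays, the mean r of deviations with arrays of other groups was highest for their own number. Some list genes changed direction with the probe set. With x_at and s_at probe sets left out, HCT116 minus Hke3 was 0.059 for COP1, -0.32 for ELF3, 0.77 for ELK4 and -0.38 for FGFR1, HCT116 minus Hkh-2 was 0.43 for FGFR2 and -0.47 for RPS6KA5, and Hke3 minus Hkh-2 was -0.31 for ELK4 and 0.54 for FGFR2. With the mean of all probe sets of a gene, HCT116 minus Hke3 was 0.20 for CUL4A and 0.10 for FGFR2. Counts over all genes and all probe sets stayed within 1.5 times their value. The counts called within the pathway lists held less well. Taking each count under each alternative as 1 case, 129 moved beyond that and 991 did not. For single list genes, a call was lost in 188 such cases and gained in 125, and 6749 were unchanged. In 10 cases the sign changed, with a call in the main fit, in the alternative or in both.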
